A study of Mus musculus with 6 samples.

Results

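Glucuronosyltransferases, glutathione transferases and sulfotransferases attach a sugar acid, glutathione or sulfate to drugs, hormones and products of metabolism, which makes them more soluble and ready for export. The UGT enzymes take glucuronic acid or another sugar from a UDP-sugar, the cytosolic and mitochondrial GST enzymes and the membrane-bound MGST enzymes take glutathione, and the SULT enzymes take sulfate from the donor PAPS. In the kidney the proximal tubule carries much of this chemistry, and it also breaks glutathione conjugates down to mercapturates that leave with the urine. The genes were taken by symbol from the array's probe-to-gene table: those that begin with Ugt1, Ugt2, Ugt3, Sult or Mgst, or with Gst and a class letter a, k, m, o, p, t or z and a digit, on probe set rows that carry 1 symbol. This gave 53 of 20416 measured genes, on 299 rows: 20 Ugt, 19 Gst, 3 Mgst and 11 Sult genes. All 53 symbols are current in RefSeq.

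Kidneys of mice with TGF-β1-driven renal fibrosis were compared on 6 Affymetrix mouse arrays, in a study of how inbred strains differ in their sensitivity to it. The CBAxB6-TGFbeta group (replicates 4, 5 and 6) is named for a mixed CBA and B6 background, and the B6-TGFbeta group (replicates 1, 2 and 3) for the inbred B6 background. All 6 arrays carry TGFbeta in their names, so each group had the fibrosis-driving cytokine and no array came from kidneys without it. The labels add KO to CBAxB6-TGFbeta and WT to B6-TGFbeta without naming a deleted gene, and they describe cohorts of littermates of like age and sex. Which promoter drove the TGF-β1, and at what age and in which sex kidneys were taken, was not stated in the labels. A difference that the backgrounds had before fibrosis, a genotype behind the words KO and WT, and a different response to TGF-β1 cannot be told apart. Whether the probes match the sequence of both backgrounds alike was not tested. Nothing states that each array is a separate animal, so the p-values measure the spread between these samples.

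Values are log2 intensities, with 1 value per gene and array from a median polish over the rows of the gene, and differences are CBAxB6-TGFbeta minus B6-TGFbeta. A gene passed at an adjusted p under 0.05 in limma with Benjamini-Hochberg adjustment over all genes. Array medians lay between 7.27 and 7.34. Proximal tubule markers were present on every array, with a summed level of 14.47 to 15.03 in CBAxB6-TGFbeta and 15.67 to 15.82 in B6-TGFbeta, and 15 of 20 of them were lower in CBAxB6-TGFbeta (4.57% of all genes were lower and 3.08% higher). Among the injury markers 8 of 12 were higher in CBAxB6-TGFbeta, with a summed level of 13.75 to 14.12 in CBAxB6-TGFbeta and 13.10 to 13.14 in B6-TGFbeta. Markers of other cell types moved too: 7 of 10 for the loop of Henle and distal tubule, 5 of 11 for the collecting duct, 3 of 5 for podocytes and 3 of 7 for endothelium were lower. Higher were 7 of 10 markers of macrophages and leukocytes and 3 of 9 of fibroblasts. The summed level of the macrophage list was 11.81 to 12.42 in CBAxB6-TGFbeta and 10.91 to 11.31 in B6-TGFbeta, and that of the loop and distal list 13.30 to 13.59 in CBAxB6-TGFbeta and 14.24 to 14.45 in B6-TGFbeta. The part of these shifts in the transferase results was not tested. In bulk RNA, fewer cells of a type and less RNA per cell cannot be told apart. Some arrays also showed genes of neighbouring tissues. The summed level of 12 adrenal markers was 9.20 to 9.32 in CBAxB6-TGFbeta, against 10.31 in B6-TGFbeta replicate 1, 12.71 in replicate 2 and 9.27 in replicate 3. The summed level of 11 fat markers was 10.41 to 11.09 in CBAxB6-TGFbeta, and it was 12.70 in B6-TGFbeta replicate 2 against 10.51 and 10.70 in the other B6-TGFbeta arrays. The summed level of 10 liver markers was 11.61, 11.60 and 12.55 in CBAxB6-TGFbeta replicates 4, 5 and 6 and 11.43, 12.03 and 11.68 in B6-TGFbeta replicates 1, 2 and 3. Among them Alb, named after its values were seen, stood at 10.94 in CBAxB6-TGFbeta replicate 6 and at 9.45 in B6-TGFbeta replicate 2, against 6.00 to 6.29 in the other 4 arrays. None of the 33 adrenal, fat and liver genes passed the test. A gene raised on single arrays has a wide spread within its group and can hardly pass. The SD of Alb was 2.83 in CBAxB6-TGFbeta and 1.83 in B6-TGFbeta. The count therefore cannot show how much neighbouring tissue the arrays held.

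Among the 53 transferase genes, 9 were lower in CBAxB6-TGFbeta kidneys, 1 was higher and 43 did not pass, so that 18.9% passed in either direction, against 7.65% of all genes. The lower genes were Ugt3a1, Ugt3a2 and Ugt1a6a of the glucuronosyltransferases and Gstk1, Gstz1, Gsta3, Gsta4, Gstt1 and Gstt3 of the glutathione transferases, and the higher one was the glucuronosyltransferase Ugt2b37. The lower genes were 17.0% of the 53, against 4.57% of all genes tested, and the higher one was 1.89%, against 3.08% of all genes. The median difference of the 53 was -0.05, against 0.02 for all genes. The groups did not overlap in 20 of the 53 (37.7%), against 26.8% of all genes. Of the 53, 14 lay in the dimmest 25% of genes, with a mean under 5.73 on the log2 scale. The other 39 had a median difference of -0.20, against -0.002 for all genes outside the dimmest 25%. None of the 10 passed without B6-TGFbeta replicate 1, 2 or 3, or against replicate 3 alone, the B6-TGFbeta array without raised adrenal or fat markers; there the lower genes stood between -1.76 (Ugt3a1) and -0.32 (Gstt3) and Ugt2b37 at 1.29. Of the lower genes, 2, 1 and 6 passed without CBAxB6-TGFbeta replicate 4, 5 and 6, while Ugt2b37 passed in none of these fits.

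**Figure D1:**
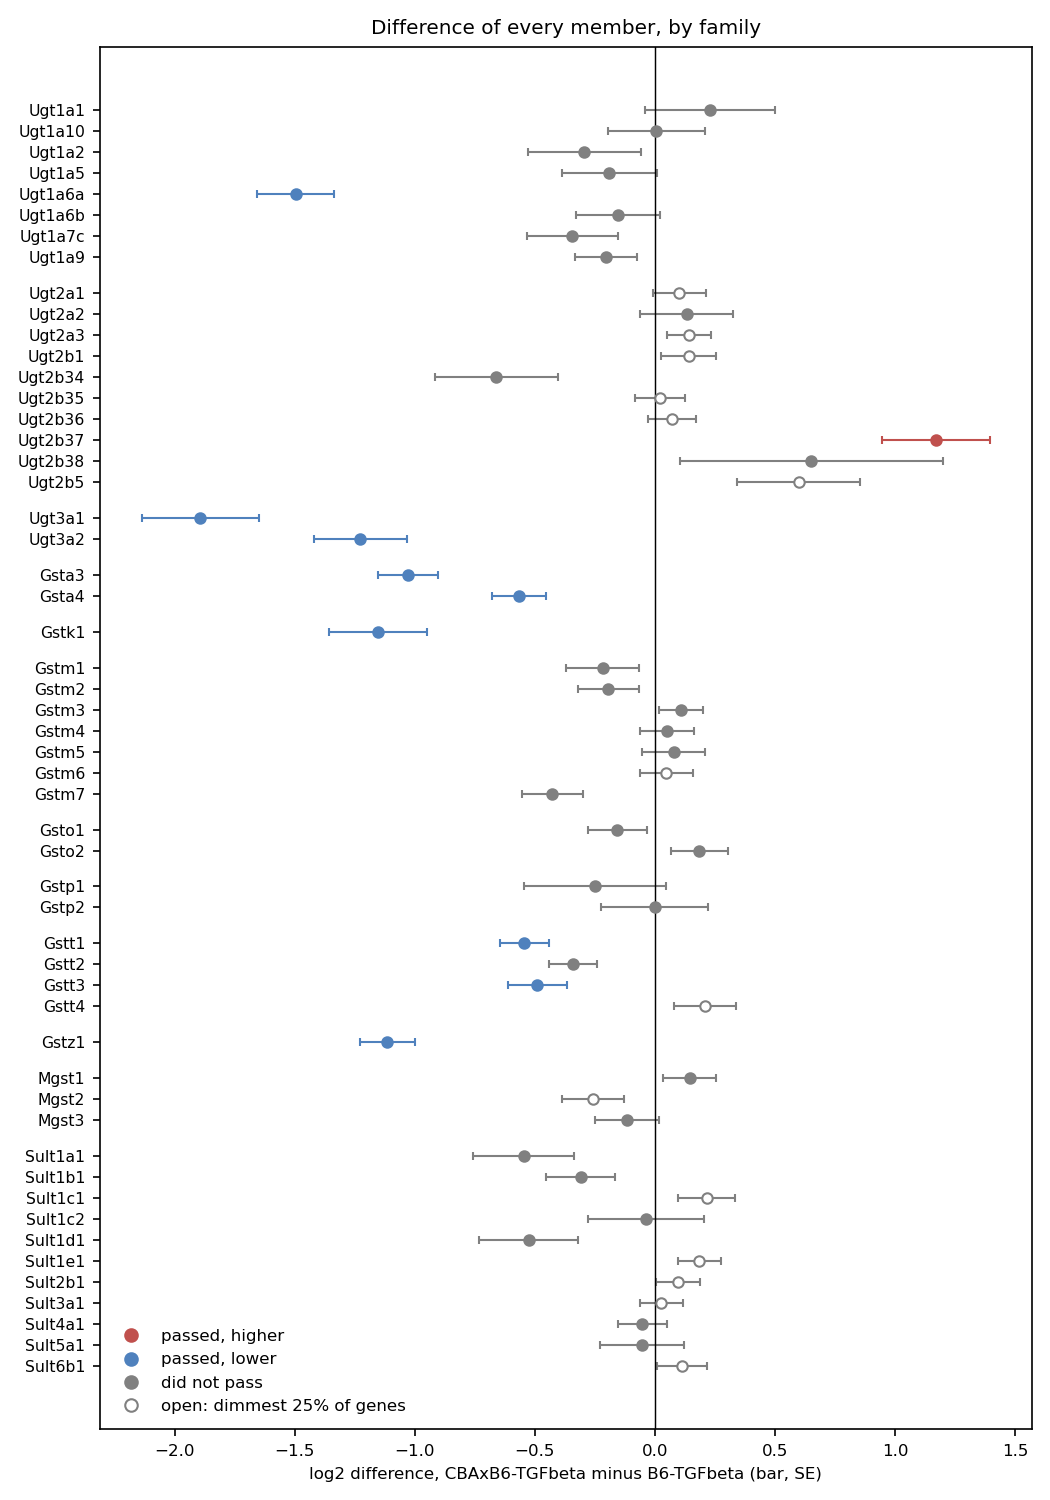
Log2 difference of each of the 53 genes, CBAxB6-TGFbeta minus B6-TGFbeta, grouped by family. Points are differences and bars are standard errors of the limma model. Blue genes passed and were lower, the red gene Ugt2b37 passed and was higher, and open points are the 14 genes of the dimmest 25%. The lower genes sit in the Ugt1, Ugt3, Gsta, Gstk, Gstt and Gstz families. No Gstm, Mgst or Sult gene passed, which for so few genes is near the 7.65% of all genes.

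Promoter windows of 300 bases around a gene's start were available in RefSeq (build GRCm38.p6) for 48 of the 53 genes and for 8 of the 10 that passed, in 10 windows. They were searched on both strands for GTTAAT, the half-site of the tubular and hepatic factor HNF1, for CAAAGTCCA, a core of HNF4 sites, for TGACNNNGC, the core of the antioxidant response element that NRF2 binds, and for GCGTG, the core bound by the aryl hydrocarbon receptor. GTTAAT was found in 3 of the 10 windows (Ugt3a1, Ugt1a6a and Gsta3), in 9 of 59 windows of all transferase genes and in 7.1% of 32851 windows of all genes. TGACNNNGC was found in 1 of the 10 (Gsta3), in 4 of 59 and in 12.4%. GCGTG was in 0 of the 10, in 10 of 59 and in 32.4%, and CAAAGTCCA in 0, 1 and 0.475%. These are matches of letters in a window and show no binding. The windows below are those of the lower genes Ugt3a1 (chr15:9279579-9279878, plus strand), Ugt1a6a (chr1:88134559-88134858, plus strand) and Gsta3 (chr1:21240335-21240634, plus strand), of the higher gene Ugt2b37 (chr5:87254739-87255038, minus strand), and of Ugt1a10 (chr1:88055161-88055460, plus strand), which shares its last exons with Ugt1a6a and did not pass. Sequences run 5′ to 3′, and capitals mark matches to GTTAAT and, in Gsta3, also to TGACNNNGC.
Ugt3a1: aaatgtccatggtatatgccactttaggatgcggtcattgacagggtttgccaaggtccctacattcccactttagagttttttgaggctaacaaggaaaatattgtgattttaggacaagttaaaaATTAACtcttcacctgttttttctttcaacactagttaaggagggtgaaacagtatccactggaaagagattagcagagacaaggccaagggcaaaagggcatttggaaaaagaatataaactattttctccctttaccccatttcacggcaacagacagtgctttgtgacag
Ugt1a6a: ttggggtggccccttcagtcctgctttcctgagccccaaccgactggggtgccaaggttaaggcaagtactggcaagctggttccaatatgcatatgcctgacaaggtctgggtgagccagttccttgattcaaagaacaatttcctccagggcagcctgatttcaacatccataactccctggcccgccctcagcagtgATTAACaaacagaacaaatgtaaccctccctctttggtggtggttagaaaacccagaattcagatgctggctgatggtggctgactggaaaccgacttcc
Ugt1a10: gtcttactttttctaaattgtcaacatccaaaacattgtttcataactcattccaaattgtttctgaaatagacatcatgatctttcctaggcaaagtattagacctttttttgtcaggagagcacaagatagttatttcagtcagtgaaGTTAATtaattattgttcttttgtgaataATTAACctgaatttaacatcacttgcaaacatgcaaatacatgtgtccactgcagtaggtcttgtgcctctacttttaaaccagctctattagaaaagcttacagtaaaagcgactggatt
Gsta3: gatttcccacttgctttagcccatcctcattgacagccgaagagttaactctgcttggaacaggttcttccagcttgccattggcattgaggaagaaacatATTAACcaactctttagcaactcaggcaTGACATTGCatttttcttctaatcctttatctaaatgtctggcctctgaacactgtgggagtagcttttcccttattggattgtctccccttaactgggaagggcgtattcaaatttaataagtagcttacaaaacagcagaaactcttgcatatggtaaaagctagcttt
Ugt2b37: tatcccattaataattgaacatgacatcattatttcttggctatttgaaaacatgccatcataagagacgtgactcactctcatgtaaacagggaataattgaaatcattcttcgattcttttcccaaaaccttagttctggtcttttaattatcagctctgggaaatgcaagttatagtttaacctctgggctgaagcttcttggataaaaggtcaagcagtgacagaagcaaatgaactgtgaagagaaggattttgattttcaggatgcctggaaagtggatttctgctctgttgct
The window of Ugt1a10 holds GTTAAT at 2 places and that of Ugt2b37 holds none of the 4 motifs.

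Both genes of the Ugt3 family were lower in CBAxB6-TGFbeta, against 4.57% of all genes. The human UGT3A enzymes use sugars other than glucuronic acid, UGT3A1 with N-acetylglucosamine and UGT3A2 with glucose or xylose. Ugt3a1 stood at 6.35, 6.38 and 7.38 in CBAxB6-TGFbeta, against 8.73, 8.53 and 8.53 in B6-TGFbeta. The CBAxB6-TGFbeta arrays all lay below the B6-TGFbeta arrays, with replicate 6 the highest of its group. The log2 difference was -1.89 (SE 0.24), a level 3.71 times higher in B6-TGFbeta, with an adjusted p of 0.00255 in limma. Ugt3a2 stood at 10.19, 10.34 and 11.03 in CBAxB6-TGFbeta, against 11.83, 11.73 and 11.67 in B6-TGFbeta, a difference of -1.23 (SE 0.19, adjusted p 0.00663 in limma). Its groups did not overlap either, and replicate 6 again stood above the other CBAxB6-TGFbeta arrays. The difference was negative on 5 of 5 rows of Ugt3a1, from -3.01 to -1.48, and on 4 of 4 rows of Ugt3a2, from -1.82 to -0.54. Rows that name both genes were not part of either value. They held 4 distinct profiles, all with a negative difference and 1 of them passing a limma test over all rows (0.535% of all rows passed), with a summarised level of 8.64, 8.91 and 9.71 in CBAxB6-TGFbeta against 10.80, 10.58 and 10.44 in B6-TGFbeta. The level of these shared rows can come from either gene. Replicate 6 also had the highest proximal tubule markers of its group, with summed levels of 14.47, 14.72 and 15.03 in CBAxB6-TGFbeta replicates 4, 5 and 6, and the part of this in the Ugt3 result was not tested. With each array left out in turn the differences ran from -2.17 to -1.67 for Ugt3a1 and from -1.44 to -1.06 for Ugt3a2, and both passed only without CBAxB6-TGFbeta replicate 6. On its brightest row alone Ugt3a2 stood at -0.54 and did not pass (adjusted p 0.229 in limma).

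**Figure D2:**
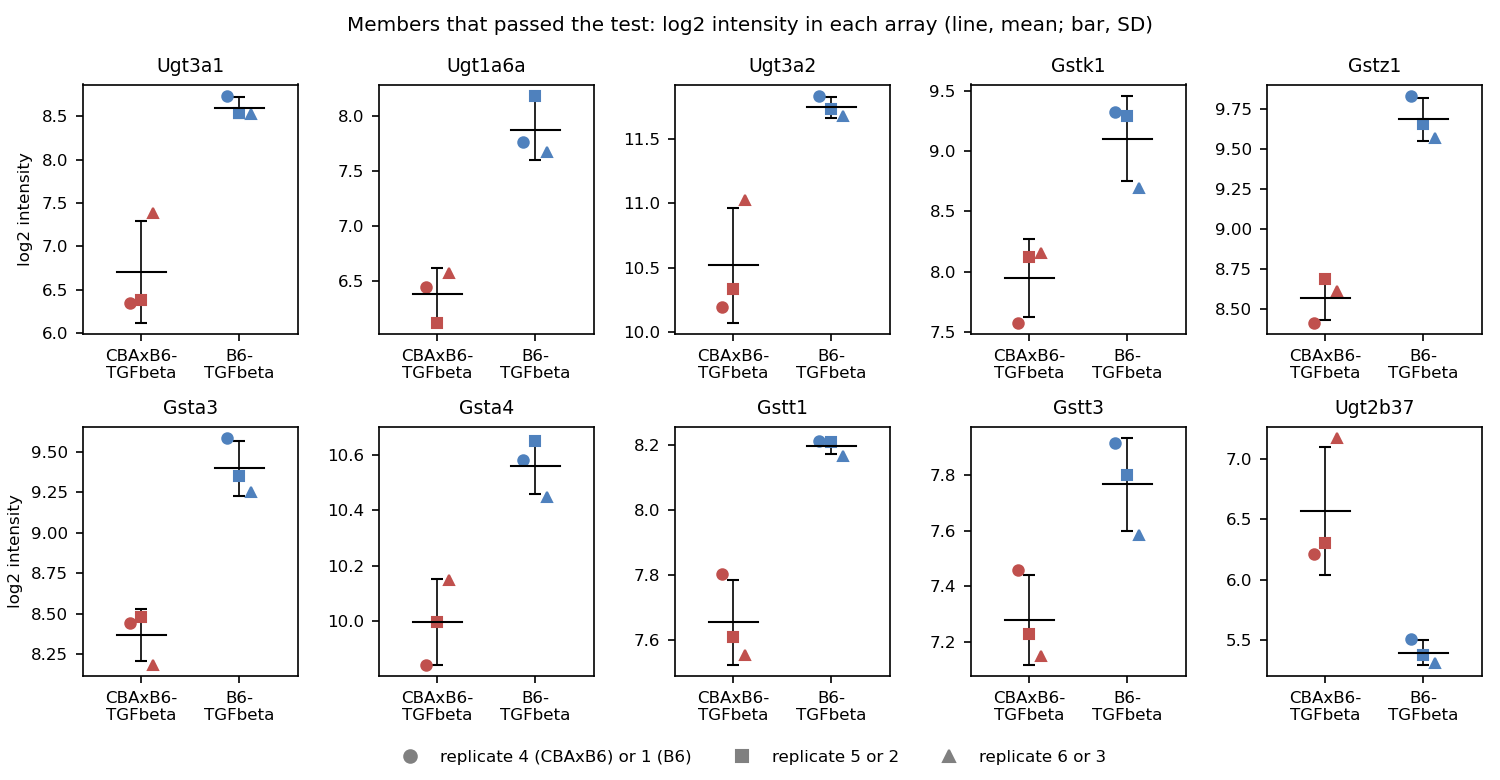
Log2 intensity of the 10 genes that passed, in each array, with CBAxB6-TGFbeta on the left and B6-TGFbeta on the right of every panel. Lines are means, bars are SD over 3 arrays, and each panel has its own axis. In 9 panels the CBAxB6-TGFbeta arrays all lie below the B6-TGFbeta arrays, and in the panel of Ugt2b37 they lie above.

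The Ugt1 genes share 1 locus. Each has its own start and first exon, which sets the substrate, and all are spliced to the same later exons. In RefSeq the starts run along chromosome 1 in the order Ugt1a10, Ugt1a9, Ugt1a7c, Ugt1a6b, Ugt1a6a, Ugt1a5, Ugt1a2 and Ugt1a1 (GRCm38.p6), and each measured Ugt1 gene rested on 1 or 2 rows. Of the 8, Ugt1a6a was lower (12.5%, against 4.57% of all genes) and 7 did not pass. Ugt1a6a, whose enzyme conjugates small planar phenols, stood at 6.45, 6.12 and 6.57 in CBAxB6-TGFbeta, against 7.77, 8.19 and 7.68 in B6-TGFbeta. No array of one group reached the other group. The difference was -1.50 (SE 0.16), a level 2.82 times higher in B6-TGFbeta, with an adjusted p of 0.00108 in limma, and it rests on 1 row. Ugt1a6b, a close copy of Ugt1a6a with its own start, stood at 7.29, 7.21 and 7.38 in CBAxB6-TGFbeta, against 7.10, 7.36 and 7.87 in B6-TGFbeta, and the groups overlapped. The differences of the 7 that did not pass lay between -0.34 (Ugt1a7c) and 0.23 (Ugt1a1, which encodes the bilirubin-conjugating enzyme). Ugt1a10 was among the flattest, at 9.41, 9.62 and 10.10 in CBAxB6-TGFbeta and 9.98, 9.77 and 9.36 in B6-TGFbeta. Rows that carry 7 or 8 Ugt1a symbols at once had a summarised level of 10.03, 9.89 and 10.33 in CBAxB6-TGFbeta, against 10.24, 10.08 and 9.85 in B6-TGFbeta. These shared rows overlapped between the groups, with differences from -0.42 to 0.50 over 6 rows and none passing a limma test over all rows. When they were added to the rows of Ugt1a6a its value was set by them, at -0.01 (adjusted p 0.984 in limma). With each array left out in turn the difference of its own row ran from -1.60 to -1.34, and it passed only without CBAxB6-TGFbeta replicate 6.

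**Figure D3:**
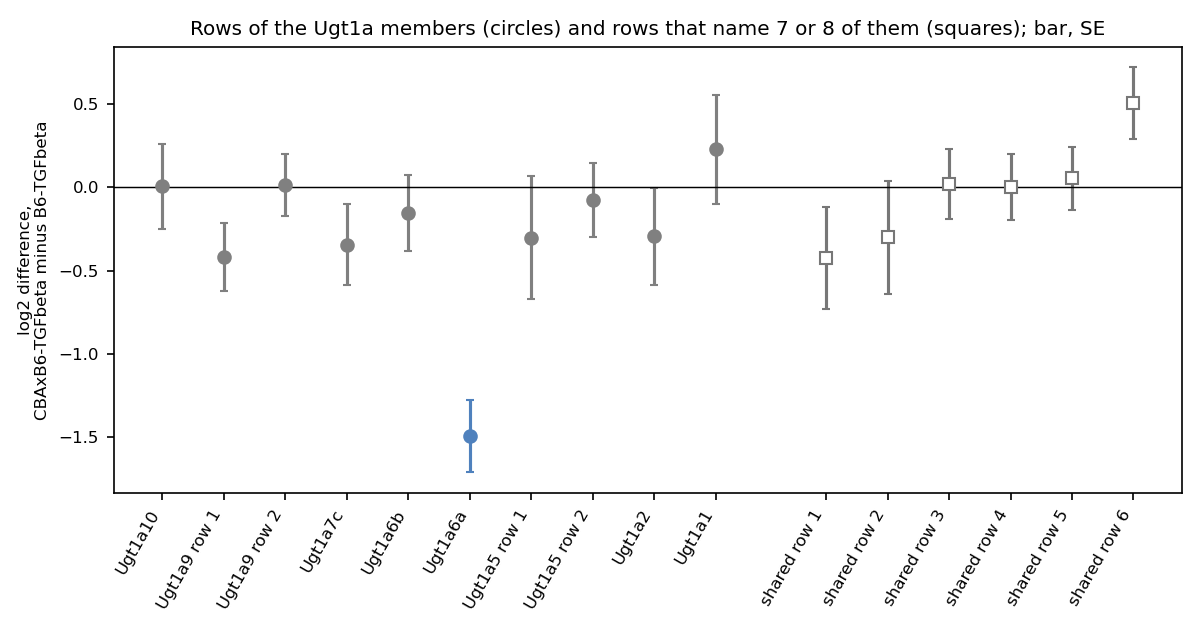
Log2 difference of each row of the Ugt1a genes, in the order of their starts (circles), and of the 6 rows that name 7 or 8 of these genes (squares), CBAxB6-TGFbeta minus B6-TGFbeta. Bars are standard errors of the limma model on single rows. The row of Ugt1a6a sits at -1.50, and the other rows lie between -0.42 and 0.50.

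The Ugt2 family, whose enzymes conjugate steroids and many drugs, held the only transferase gene that was higher in CBAxB6-TGFbeta. Ugt2b37 stood at 6.21, 6.31 and 7.18 in CBAxB6-TGFbeta, against 5.50, 5.37 and 5.31 in B6-TGFbeta. All 3 CBAxB6-TGFbeta arrays lay above the B6-TGFbeta arrays, and replicate 6 was well above the other 2. The difference was 1.17 (SE 0.22), with an adjusted p of 0.0151 in limma. All 3 B6-TGFbeta values lay under 5.73, the bound of the dimmest 25% of genes, so the gene stood above that bound only through CBAxB6-TGFbeta and its size is uncertain. Without the dimmer 50% of rows it was 0.87 and did not pass (adjusted p 0.0619 in limma). It was positive on 4 of 4 rows, from 0.83 to 2.04. Without replicate 6 it was 0.75 (adjusted p 0.0615 in limma), and it passed in none of the fits that left out 1 array, where it ran from 0.75 to 1.33. Ugt2b38 and Ugt2b5 are close paralogues of Ugt2b37 on chromosome 5, and rows of one may take signal from another. Ugt2b38 spread widely, at 5.68, 6.53 and 8.41 in CBAxB6-TGFbeta against 6.51, 6.12 and 6.04 in B6-TGFbeta. The groups overlapped, and the difference was 0.65 (SE 0.55, adjusted p 0.561 in limma), or -0.12 without replicate 6. Ugt2b5 stood at 5.03, 4.88 and 5.97 in CBAxB6-TGFbeta, against 4.43, 4.87 and 4.79 in B6-TGFbeta, without overlap and with replicate 6 again the highest (0.60, SE 0.26, adjusted p 0.215 in limma). The summed liver markers were also highest in that array, and their part in these values was not tested. Ugt2b1 and Ugt2b36 stood at 3.88 and 3.65 in replicate 6, also the highest of their group but within the dimmest 25% of genes. In CBAxB6-TGFbeta replicates 4 and 5 Ugt2b1 stood at 3.70 and 3.73 and Ugt2b36 at 3.47 and 3.63. Ugt2b34 ran the other way from Ugt2b37, at 7.07, 7.73 and 8.24 in CBAxB6-TGFbeta against 8.44, 8.52 and 8.07 in B6-TGFbeta, with overlap and no call (-0.66, SE 0.26, adjusted p 0.170 in limma). Of the 10 Ugt2 genes 6 were in the dimmest 25%, among them Ugt2a1, Ugt2a3, Ugt2b1, Ugt2b35 and Ugt2b36 with differences of 0.02 to 0.14, and Ugt2a2, on 1 row, gave 0.13.

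Of the 19 cytosolic and mitochondrial glutathione transferases 6 were lower (31.6%, against 4.57% of all genes), none was higher and 13 did not pass. The 6 belonged to the alpha, kappa, theta and zeta classes. Gstz1, which isomerises maleylacetoacetate in tyrosine breakdown, stood at 8.41, 8.68 and 8.61 in CBAxB6-TGFbeta, against 9.83, 9.66 and 9.57 in B6-TGFbeta. The groups were well apart and tight, and the difference was -1.11 (SE 0.11, adjusted p 0.000891 in limma), a level 2.17 times higher in B6-TGFbeta. It was negative on 8 of 8 rows, from -1.40 to -0.79. Gstk1, the kappa enzyme of mitochondria and peroxisomes, stood at 7.58, 8.12 and 8.16 in CBAxB6-TGFbeta, against 9.33, 9.29 and 8.69 in B6-TGFbeta. CBAxB6-TGFbeta replicate 4 was the lowest array, and B6-TGFbeta replicate 3 was the nearest to the other group. Its difference was -1.15 (SE 0.20, adjusted p 0.0106 in limma), negative on 9 of 9 rows, and it was -0.67 against B6-TGFbeta replicate 3 alone, which did not pass.

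In the alpha class, whose enzymes handle lipid peroxidation products and epoxides, both measured genes were lower, against 4.57% of all genes. Gsta3 stood at 8.45, 8.48 and 8.19 in CBAxB6-TGFbeta, against 9.59, 9.35 and 9.26 in B6-TGFbeta, a difference of -1.03 (SE 0.12, adjusted p 0.00192 in limma) that was negative on 8 of 8 rows within a narrow range, from -1.16 to -0.90. The arrays of the 2 groups were about a log2 unit apart, and replicate 6 was here the lowest of the CBAxB6-TGFbeta arrays. Gsta4, which detoxifies the lipid aldehyde hydroxynonenal, stood at 9.84, 9.997 and 10.15 in CBAxB6-TGFbeta, against 10.58, 10.65 and 10.45 in B6-TGFbeta. The groups did not overlap, and the difference was smaller than that of Gsta3, at -0.56 (SE 0.11, adjusted p 0.0176 in limma) and negative on 7 of 7 rows. Gsta1 and Gsta2 had no row of their own. Rows that name either or both of them with Gm10639 held 15 distinct profiles, and all 15 had negative differences, from -1.29 to -0.43. Their summarised level was 8.43, 8.99 and 9.47 in CBAxB6-TGFbeta, against 9.99, 10.12 and 9.72 in B6-TGFbeta. The summarised groups did not overlap, in 13 of the 15 profiles the single rows did not overlap either (against 20.4% of all rows), and none of the 15 passed a test over all rows, where 0.535% of rows passed. Gsta3 and Gsta4 passed without CBAxB6-TGFbeta replicate 6 but in no other fit that left out 1 array, with differences of -1.08 to -0.92 and -0.67 to -0.51.

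Of 4 theta genes, Gstt1 and Gstt3 were lower (50%, against 4.57% of all genes). Gstt1, whose enzyme activates or detoxifies halogenated methanes, stood at 7.80, 7.61 and 7.55 in CBAxB6-TGFbeta, against 8.21, 8.21 and 8.17 in B6-TGFbeta. The B6-TGFbeta arrays were nearly level, and the difference was -0.54 (SE 0.10, adjusted p 0.0136 in limma). Its rows disagreed, running from -1.05 to 0.35 with 5 of 6 negative, and on its brightest row it was -0.11 and did not pass. Gstt3 stood at 7.46, 7.23 and 7.15 in CBAxB6-TGFbeta, against 7.91, 7.80 and 7.59 in B6-TGFbeta, close to the threshold (-0.49, SE 0.12, adjusted p 0.0456 in limma) and negative on 6 of 6 rows. Gstt2 missed it, at 9.08, 8.91 and 8.98 in CBAxB6-TGFbeta against 9.43, 9.31 and 9.24 in B6-TGFbeta, where the groups did not overlap (-0.34, SE 0.10, adjusted p 0.0770 in limma). Gstt4 was among the dimmest 25% of genes and gave 0.21. Leaving out 1 array at a time, Gstt1 passed only without CBAxB6-TGFbeta replicate 4 (-0.58 to -0.43), Gstz1 without CBAxB6-TGFbeta replicate 4, 5 or 6 (-1.16 to -0.94), and Gstk1 and Gstt3 in none of the fits (-1.34 to -0.95 and -0.59 to -0.40).

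None of the 7 mu class genes passed, where 7.65% of all genes did, so that this count too is near that of genes at large. Of the 7, Gstm1, Gstm2 and Gstm7 had negative differences and Gstm3, Gstm4, Gstm5 and Gstm6 positive ones. Gstm1 stood at 11.49, 10.88 and 11.29 in CBAxB6-TGFbeta, against 11.46, 11.51 and 11.34 in B6-TGFbeta, so that the groups overlapped (-0.22, SE 0.15, adjusted p 0.467 in limma). Gstm7 came nearest to a call, at 7.02, 6.93 and 7.14 in CBAxB6-TGFbeta against 7.43, 7.69 and 7.25 in B6-TGFbeta, with no overlap (-0.43, SE 0.13, adjusted p 0.0770 in limma) and 8 of 8 rows negative. The mu genes lie together on chromosome 3 and are alike in sequence, so rows may take signal from several of them. The pi class enzyme gene Gstp1 gave -0.25 (SE 0.30) and Gstp2 gave 0.00 (SE 0.22), with all groups overlapping, and rows that name both gave -0.23. The omega genes Gsto1 and Gsto2, which reduce dehydroascorbate, gave -0.16 (SE 0.12) and 0.18 (SE 0.12). The membrane-bound Mgst1, a microsomal and mitochondrial enzyme, stood at 9.95, 10.01 and 9.79 in CBAxB6-TGFbeta and 9.65, 9.93 and 9.74 in B6-TGFbeta. Its difference was 0.14 (SE 0.11, adjusted p 0.522 in limma), and Mgst2 and Mgst3, which can make leukotriene C, gave -0.26 and -0.12 without passing.

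None of the 11 sulfotransferase genes passed, where 7.65% of all genes did, so the count is near that of genes at large. Of the 11, 5 were in the dimmest 25% of genes. Over the 11 the median difference was -0.04, with 6 negative and 5 positive values. Sult1d1, which acts on catecholamines, stood at 11.23, 10.52 and 11.43 in CBAxB6-TGFbeta, against 11.62, 11.47 and 11.66 in B6-TGFbeta. The groups did not overlap and all 10 rows were negative, but replicate 5 was far below the other CBAxB6-TGFbeta arrays and the gene did not pass (-0.53, SE 0.21, adjusted p 0.175 in limma). Sult1a1, the phenol sulfotransferase, stood at 7.89, 7.06 and 7.09 in CBAxB6-TGFbeta, against 7.69, 7.96 and 8.02 in B6-TGFbeta. Here replicate 4 lay among the B6-TGFbeta arrays and the other 2 lay below them (-0.55, SE 0.21, adjusted p 0.167 in limma). Sult1c2 differed little in mean and widely in spread, at 8.53, 8.84 and 9.63 in CBAxB6-TGFbeta against 9.13, 9.16 and 8.82 in B6-TGFbeta (-0.04, SE 0.24). The estrogen sulfotransferase Sult1e1 was dim on every array, at 3.61 to 3.63 in CBAxB6-TGFbeta and 3.40 to 3.49 in B6-TGFbeta, a difference of 0.19 that did not pass although the groups did not overlap. Sult1c1, Sult2b1, Sult3a1 and Sult6b1 were dim too, with differences of 0.03 to 0.22, and Sult1b1, Sult4a1 and Sult5a1 gave -0.31, -0.05 and -0.05.

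The spread inside the groups was uneven. The SD was larger in CBAxB6-TGFbeta for 23 of the 39 transferase genes outside the dimmest 25% (59%), and for 61.5% of all such genes. Among these 39, CBAxB6-TGFbeta replicate 6 was the highest array of its group for 19, replicate 4 for 14 and replicate 5 for 6. Replicate 6 was also the lowest for 14, replicate 4 for 13 and replicate 5 for 12. Of 20 proximal tubule markers, replicate 6 was the highest of its group for 15 and the lowest for 0, and replicate 4 was the lowest for 17.

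Genes that supply the donors and handle the conjugates were counted from lists put together by function. Of 22 measured genes of glutathione synthesis, recycling and mercapturate formation, 9 were lower (40.9%, against 4.57% of all genes), none was higher and 13 missed the threshold. Their median difference was -0.49. The lower ones included Dpep1, the brush border dipeptidase that cleaves cysteinylglycine conjugates (-1.34, SE 0.15), Slc1a1, which imports cysteine and glutamate (-1.16, SE 0.13), Slc3a1 of the cystine carrier (-0.84, SE 0.12) and Gsr, which regenerates reduced glutathione (-0.76, SE 0.10). The synthesis enzyme genes Gclc and Gclm, named after their values were seen, gave -0.09 and -0.36 without passing. Dpep1 stood at 8.80, 8.28 and 8.27 in CBAxB6-TGFbeta, against 9.75, 9.75 and 9.87 in B6-TGFbeta. On its brightest row Gsr gave -0.16 and did not pass, and Slc1a1 did not pass on its own brightest row either. On the brightest row of each gene 4 of the 22 were lower. For sulfation, sulfate supply and sulfate ester hydrolysis, 4 of 14 measured genes were lower (28.6%, against 4.57% of all genes) and none was higher. Papss2, which makes the sulfate donor PAPS, stood at 9.38, 9.74 and 10.12 in CBAxB6-TGFbeta against 10.86, 10.83 and 10.69 in B6-TGFbeta (-1.05, SE 0.17). The others were Suox, Bpnt1 and Arsb (-0.79, -0.52 and -0.43), of which Arsb belongs to sulfate ester hydrolysis. Arsb passed in no fit that left out 1 array. On the brightest row of each gene 1 of the 14 was lower, and Papss2, Bpnt1 and Arsb did not pass. For glucuronidation, none of 8 genes was lower and 1 was higher, Gusb, the lysosomal enzyme that removes glucuronic acid (0.50, SE 0.11), against 3.08% of all genes. Gusb passed in no fit that left out 1 array, nor with the mean of rows or the brightest row. The UDP-glucuronate enzymes Ugp2 and Ugdh, also named after their values were seen, gave 0.17 and 0.06 without passing.

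Of 12 efflux carriers of conjugates and drugs, Slc47a1, an apical exporter of organic cations (-0.81, SE 0.11), and Abcc2, an apical exporter of glucuronides and glutathione conjugates (-0.73, SE 0.12), were lower and 10 did not pass (16.7% lower, against 4.57% of all genes). Of 17 other phase II transferases and hydrolases 4 were lower, namely Inmt (-1.58), Acsm2 (-1.16), Acsm1 (-0.73) and Bphl (-0.70), or 23.5%. Inmt lay in the dimmest 25% of genes, so the size of its difference is uncertain. It stood at 4.76, 4.93 and 5.04 in CBAxB6-TGFbeta, against 6.02, 7.08 and 6.37 in B6-TGFbeta replicates 1, 2 and 3. Of 25 genes of the NRF2 pathway outside the transferases, the carbonyl reductase Cbr1 (-1.36, SE 0.15), Me1 (-0.61) and Osgin1 (-0.50) were lower, Maff, a small MAF protein gene, was higher (0.56) and 21 missed the threshold, which is 12.0% lower and 4.00% higher, against 4.57% and 3.08% of all genes. The median over the 25 was -0.07. Maff, Me1 and Osgin1 passed in no fit that left out 1 array, and the same held for Abcc2 and Acsm1 above. Nfe2l2, which encodes NRF2, gave -0.17 (adjusted p 0.409 in limma). Its targets Nqo1 and Hmox1, named like it after their values were seen, gave -0.54 (adjusted p 0.0564 in limma) and 1.18 (adjusted p 0.173 in limma). Of 16 xenobiotic receptors and tubular transcription factors 4 were lower (25%). They were the nuclear receptors Hnf4a (-0.89, SE 0.14), Esr1 (-0.75, SE 0.12) and Ppara (-0.72, SE 0.13) and the coactivator Ppargc1a (-0.60, SE 0.14). Hnf4a and Ppara passed in no fit that left out 1 array. The xenobiotic receptor genes Ahr, Nr1i2 and Nr1i3, named after their values were seen, gave 0.20, -0.26 and -0.29 without passing. On the brightest row of each gene 0 of the 16 were lower and 1 was higher. There 1 efflux carrier, 1 other phase II gene and 1 NRF2 gene were lower. Against B6-TGFbeta replicate 3 alone none of the 26 genes counted as lower in these lists passed, and with 1 array left out at a time 0 to 4 glutathione genes, 0 to 3 sulfation genes, 0 to 2 of the receptors and factors, 0 to 1 efflux carriers, 0 to 3 other phase II genes and 0 to 1 NRF2 genes were lower.

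**Figure D4:**
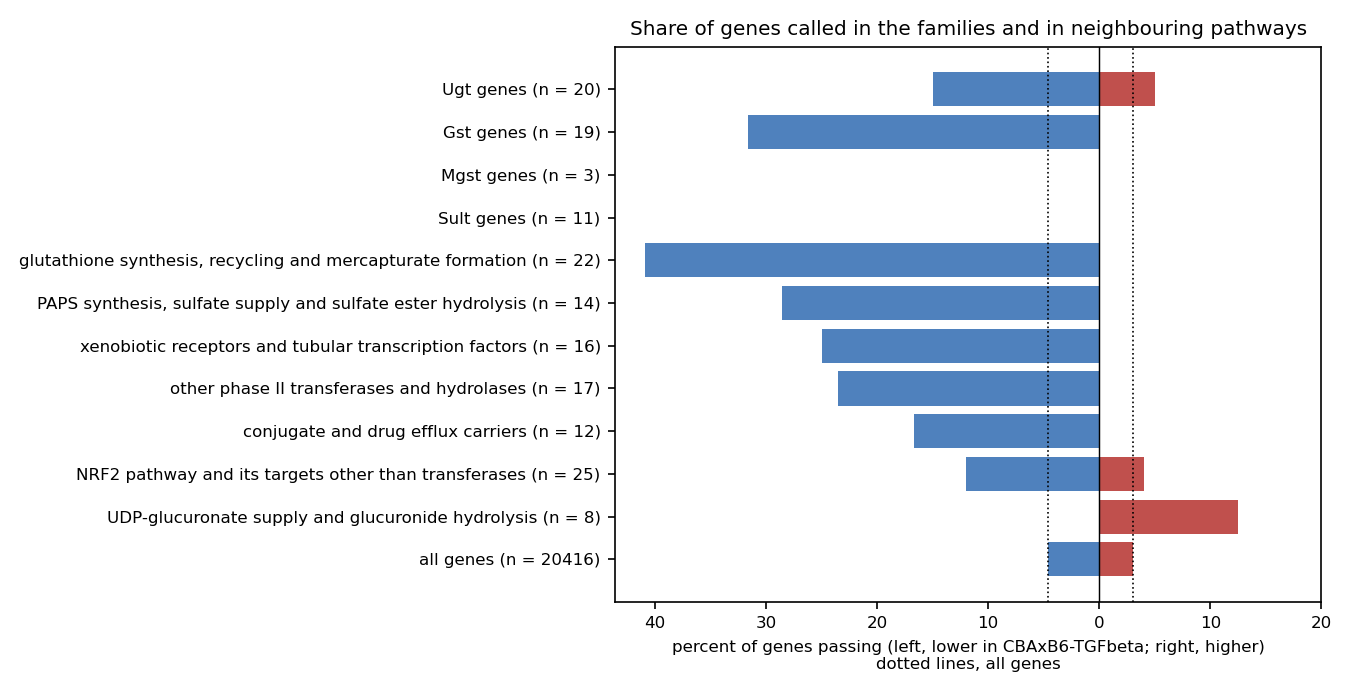
Percent of measured genes that passed in the transferase families and in neighbouring pathways, lower in CBAxB6-TGFbeta to the left and higher to the right. Dotted lines mark all 20416 genes, at 4.57% lower and 3.08% higher. The glutathione list stands at 40.9% lower and the Gst genes at 31.6%. None of 11 Sult and 3 Mgst genes passed, which for so few genes is near the 7.65% of all genes.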

How the data were processed

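The values deposited by the authors are log2 intensity per probe set. Per the submitters' processing notes, RMA and Partek were used; no settings or genome build are given in the sources used here. RMA pulls arrays to a common distribution, which can hide a shift shared by most genes. Of 241576 rows, 212097 carried 1 gene symbol, 4475 several and 25004 none. Gene values are median polish over rows with 1 symbol (median 8 rows, 1 row for 2292 genes). Differences were fitted with limma 3.58.1 in R 4.3.3 with 1 group term over all 6 arrays, and two-sided p-values were adjusted over all genes by Benjamini-Hochberg at a threshold of 0.05. Single rows were fitted likewise over all rows. The number of arrays limits the precision. The fits were tested on simulated data. There 94.1% and 97% of genes set to a difference of -1 and 1 passed. Of those set to -0.5 and 0.5, 15.2% and 18.2% passed. Of the 151 genes that passed there, 10 had been left unchanged. Of single rows of genes set to -1 and 1, 2.44% and 4.2% passed. A gene near a difference of 0.5, or a single row, that did not pass can therefore not be read as unchanged. Rows with several symbols entered no gene value, and rows with identical values were counted once in their summaries. RefSeq names and promoters are of build GRCm38.p6, and no array coordinates were used. The members and lists were chosen with earlier results of these data known. All passing members are described with every array's value, with the 3 largest and 3 smallest other differences outside the dimmest 25%. Up to 4 passing genes of each pathway list are named. Of each marker list none is named but Alb, which, like the other named genes, was chosen after its values were seen.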

Additional observations from a re-analysis of the deposited data

How the results depend on the processing

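No paired analysis was run, because the replicate numbers run from 1 to 6 across the groups and name no pairs. The 9 lower genes and Ugt2b37 all passed after quantile normalization, median centring, the mean of rows, removal of the dimmest 25% of genes, and trended or robust moderation. Without moderation 0 of the transferase genes were lower, 0 higher and 63 of all genes passed, and on the brightest row of each gene 3 were lower (Gsta3, Ugt1a6a and Ugt3a1), 1 was higher and 617 of all genes passed. With rows of several symbols added 8 were lower, all but Ugt1a6a, and without the dimmer 50% of rows 9 were lower and 0 higher. Leaving out 1 array at a time, 0 to 6 were lower and 0 to 0 higher, and 57 to 554 of all genes passed, against 1562 with all arrays. Against B6-TGFbeta replicate 3 alone, an alternative chosen after seeing the data, 0 were lower, 0 higher, and 40 of all genes passed. This fit and the fits that leave out an array have fewer samples. Array weights gave 12 lower genes and 1 higher, and 2243 of all genes passed. The added lower genes were Gstm7, Gstt2 and Sult1d1, so that under this setting a mu class gene and a sulfotransferase gene passed. Of the 299 rows with 1 transferase symbol 4 were lower in the fit of all rows, and of the 57 rows with several symbols 2 were. These 2 shared rows hold the same values. Of all rows 0.299% were lower. The 6 compare with 3 rows after median centring, 31 with trended moderation and 3 with robust moderation. They compare with 0 rows without moderation, 13 with array weights and 0 to 2 leaving out 1 array. No passing gene named here changed direction under the alternatives run for it (18 for Inmt and 19 for each other gene). The cause of these changes was not tested where fewer samples or rows do not account for them. Dim signal limits 14 of the 53 genes.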
